A study of Mus musculus with 54 samples.

Results

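The proteasome is the protease that degrades most proteins a cell has tagged with ubiquitin. A barrel-shaped core, the 20S particle, holds the active sites inside rings of alpha and beta subunits, and a cap, the 19S particle, recognises, unfolds and feeds in the substrate. The subunits are made in fixed proportions, and the transcription factor NFE2L1 is known to raise their genes together when proteasome activity is short. In liver the proteasome removes, among others, short-lived clock proteins.

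Proteasome subunit genes were taken by symbol: names beginning with Psma, Psmb, Psmc, Psmd or Psme and a digit, without the inducible subunits Psmb8 and Psmb9, without Psmc3ip, which is no subunit, and without named pseudogenes. Of 18079 genes in the deposited table, 41 fitted the name rule, and 40 of these had a mean of at least 0.5 FPKM (fragments scaled by gene length and by library depth) over all libraries, a level that 11759 genes reached. The member just inside that limit was Psme2b with a mean of 0.709 FPKM, and the gene left out was Psma8 with 0.476 FPKM. The 40 genes comprise 7 alpha ring genes, 8 beta ring genes, 6 ATPases of the cap, 11 other cap subunits, 3 chaperones that help to assemble the cap (Psmd5, Psmd9 and Psmd10) and 5 activators that bind the core in place of the cap.

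RNA was sequenced from 54 livers of female C57BL/6J mice aged 8 to 12 weeks, kept on normal chow without restriction and with 12 h of light a day. WT mice were wild type, KO mice lacked BMAL1, a transcription factor at the centre of the circadian clock, and Liver-RE mice, labelled Liver-RE BMAL1-stop-FL, had BMAL1 restored in the liver. The sources used here give neither what drives the restoration nor which part of the gene Arntl is altered in KO. Livers were taken at ZT0, 4, 8, 12, 16 and 20 (hours after lights on), with 3 mice per genotype and time, so each genotype had 18 libraries. The comparison of the 3 genotypes asked how far the liver clock works on its own.

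Sequencing depth, worked out from the size of 1 read in the low values, lay between 24.8 and 42.2 M reads (mega reads) per library. The label KO cannot be checked with whole-gene Arntl, whose log2 level was 0.67 higher in KO than in WT. The clock genes Dbp (-1.48) and Nr1d1 (-1.44) were lower in KO. Of 4 clock genes examined, 4 had a called rhythm in WT and 0 in KO. In 2 libraries the clock genes were out of phase with the other replicates. Arntl was at 10.6 FPKM and Dbp, a clock output gene, at 1.30 FPKM in WT ZT8 replicate 2, and at 1.90 and 15.4 FPKM in Liver-RE ZT0 replicate 3. The 10 hepatocyte markers were all above the filter. In bulk liver, fewer cells of a type and less RNA per cell cannot be told apart.

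The 4 members with the highest levels were beta ring genes. Psmb4, a structural beta subunit, had the highest mean at 99.1 FPKM, ahead of the catalytic subunit Psmb7 at 83.3 FPKM, the structural Psmb1 at 81.8 FPKM and the catalytic Psmb6 at 81.3 FPKM. The third catalytic subunit, Psmb5, was lower at 26.5 FPKM, and Psmb10, the inducible subunit that takes the place of Psmb7 in the immunoproteasome, was at 23.0 FPKM. Cap subunits ranged from 21.3 FPKM for Psmd3 to 50.2 FPKM for Psmd8. The assembly chaperones were low, at 15.8 FPKM for Psmd5, 8.10 FPKM for Psmd9 and 5.39 FPKM for Psmd10. No member was at 0 in any library. Psme2b is a near copy of Psme2, and named pseudogenes exist for Psmb5, Psmb6 and Psmb7, so reads could be divided between copies and these levels are uncertain. Exons of Psma4, Psma5, Psmb7, Psmc3, Psmd1, Psmd3, Psmd9, Psmd13 and Psme1 overlap a gene on the opposite strand, those of Psmb5, Psmd1 and Psme2b a gene on the same strand, and the sources used here do not say whether the counting used strand.

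Promoters are shown for the member with the largest genotype difference in each direction (Psmd11 and Psmb10), for the rhythmic chaperone Psmd9 and for the catalytic subunit Psmb5. RefSeq sequences on GRCm38.p6 were found for 34 of the 40 genes. Each line gives the 250 bases upstream of the gene's start, 5′ to 3′ on the gene's strand, and capitals mark matches to the motifs searched on both strands. Psmd11 lies at chr11:80428615-80473248 on the plus strand and its upstream window is chr11:80428365-80428614. Psmb10 lies at chr8:105935728-105938392 on the minus strand, with the window chr8:105938393-105938642. Psmd9 lies at chr5:123228190-123250126 on the plus strand, with the window chr5:123227940-123228189. Psmb5 lies at chr14:54614120-54617995 on the minus strand, with the window chr14:54617996-54618245.
Psmd11: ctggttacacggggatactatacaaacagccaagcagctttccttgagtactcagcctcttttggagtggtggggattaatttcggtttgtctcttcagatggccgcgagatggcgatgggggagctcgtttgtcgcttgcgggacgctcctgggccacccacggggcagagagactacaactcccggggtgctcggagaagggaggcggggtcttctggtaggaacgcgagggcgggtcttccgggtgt
Psmb10: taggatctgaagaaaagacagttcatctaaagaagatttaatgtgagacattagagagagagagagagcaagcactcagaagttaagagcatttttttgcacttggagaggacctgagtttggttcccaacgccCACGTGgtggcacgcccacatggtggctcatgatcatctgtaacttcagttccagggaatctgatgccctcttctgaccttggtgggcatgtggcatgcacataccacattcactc
Psmd9: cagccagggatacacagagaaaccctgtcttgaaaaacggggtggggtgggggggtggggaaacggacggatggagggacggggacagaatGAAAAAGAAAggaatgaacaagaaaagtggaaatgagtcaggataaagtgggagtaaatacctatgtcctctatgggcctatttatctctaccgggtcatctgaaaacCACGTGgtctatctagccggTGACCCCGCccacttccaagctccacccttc
Psmb5: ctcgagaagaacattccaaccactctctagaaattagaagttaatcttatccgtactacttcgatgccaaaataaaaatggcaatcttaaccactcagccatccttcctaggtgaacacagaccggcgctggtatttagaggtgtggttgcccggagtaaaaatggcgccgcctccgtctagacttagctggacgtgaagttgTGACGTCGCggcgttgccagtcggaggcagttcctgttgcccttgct

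The window of Psmd11 held none of the motifs searched. That of Psmb10 held an E-box, the element that BMAL1 binds with CLOCK. Psmd9 held an interferon-stimulated response element, an E-box and an antioxidant response element, in that order toward the gene's start, and Psmb5 held an antioxidant response element, the kind of site that NFE2L1 and NFE2L2 bind. Antioxidant response elements (TGACNNNGC) stood in the windows of 5 of 34 members (14.7%), namely Psmb5, Psmb6, Psmc6, Psmd12 and Psmd9, against 13.9% of 9111 tested genes with a promoter sequence. E-boxes (CACGTG) stood in 4 members (11.8%, against 10.2%), namely Psma4, Psmb10, Psmd9 and Psme3. Interferon-stimulated response elements (GAAA, a gap of 2 bases, GAAA) stood in 3 members (8.82%, against 3.33%), namely Psmb3, Psmd4 and Psmd9. CCAAT boxes stood in 12 members (35.3%, against 40.3%), of which 5 were alpha ring genes. Neither a D-box (TTATGNAA, in 2.58% of genes) nor a forkhead site (TGTTTAC, in 2.88% of genes) was found in a member's window. In the 4 windows shown no match overlaps another, and a match is a description of the sequence only.

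Most members moved up and down together from liver to liver. The correlation of a member with the mean of the other 39 on the log2(FPKM + 1) scale had a median of 0.84 over the 54 libraries, and it was at least 0.7 for 32 of 40 members. For other genes the median correlation with the proteasome mean was 0.23, and 6.21% reached 0.7. The 6 members under 0.5 were Psmb10 (0.034), Psmd3 (0.42), Psmd9 (0.17), Psmd11 (0.34), Psme1 (0.21) and Psme2b (-0.18). Psme1 encodes a subunit of the interferon-inducible activator. These libraries share depth, scaling and genotype groups: with the library's median over all genes subtracted the median correlation was 0.77, and with group means subtracted it was 0.88.

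**Figure D1:**
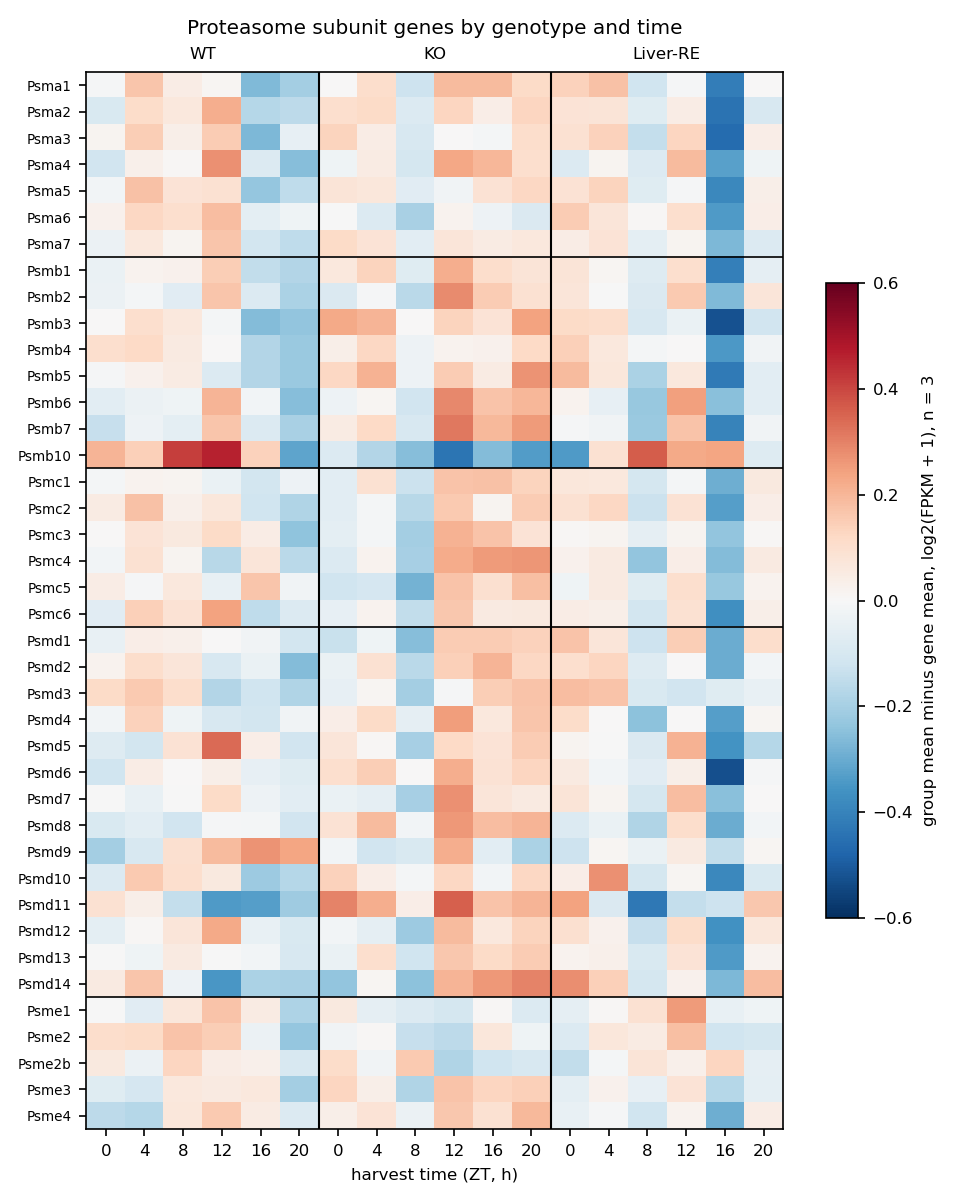
Mean level of each proteasome gene per genotype and harvest time, as the difference from the gene's mean over all 54 libraries in log2(FPKM + 1); each cell is the mean of 3 livers, and black lines separate genotypes and, from top to bottom, alpha ring, beta ring, cap ATPases, other Psmd genes and activators. Most rows are blue at Liver-RE ZT16 and red at KO ZT12, while Psmb10, Psmd9 and Psmd11 follow patterns of their own.

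Single livers stood apart for nearly all members at once. In KO ZT0 replicate 2 the median member was 0.58 (log2) above its mean over all libraries and 39 of 40 members were above, while in KO ZT0 replicate 1 the median member was 0.39 below its mean (-0.39) and 5 of 40 were above. The lowest value was in Liver-RE ZT16 replicate 3 at -0.45, with 1 member above its mean, and Liver-RE ZT16 replicate 2 was at -0.36 with 3 above. Liver-RE ZT8 replicate 1 was at -0.32 with 0 above, and its median over all genes was -0.21. Without it 3 members were rhythmic in Liver-RE in place of 1, and the share of all genes in that fit is not given. The highest Liver-RE library was ZT12 replicate 2 at 0.30, with 38 members above. In the same libraries the median over all genes was 0.17 in KO ZT0 replicate 2, -0.080 in KO ZT0 replicate 1, -0.17 in Liver-RE ZT16 replicate 3 and 0.032 in Liver-RE ZT12 replicate 2. The summed values of these libraries were, in that order, 413945, 274353 (the lowest of all), 295876 and 419402 (the highest of all). Members made up 0.538%, 0.429%, 0.356% and 0.429% of those sums. By this share KO ZT0 replicate 1 and Liver-RE ZT12 replicate 2 lay near their genotype's median (0.432% in KO, 0.419% in Liver-RE). By genotype the median member ranged from -0.24 to 0.27 in WT, from -0.39 to 0.58 in KO and from -0.45 to 0.30 in Liver-RE, so the genotypes overlapped.

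**Figure D2:**
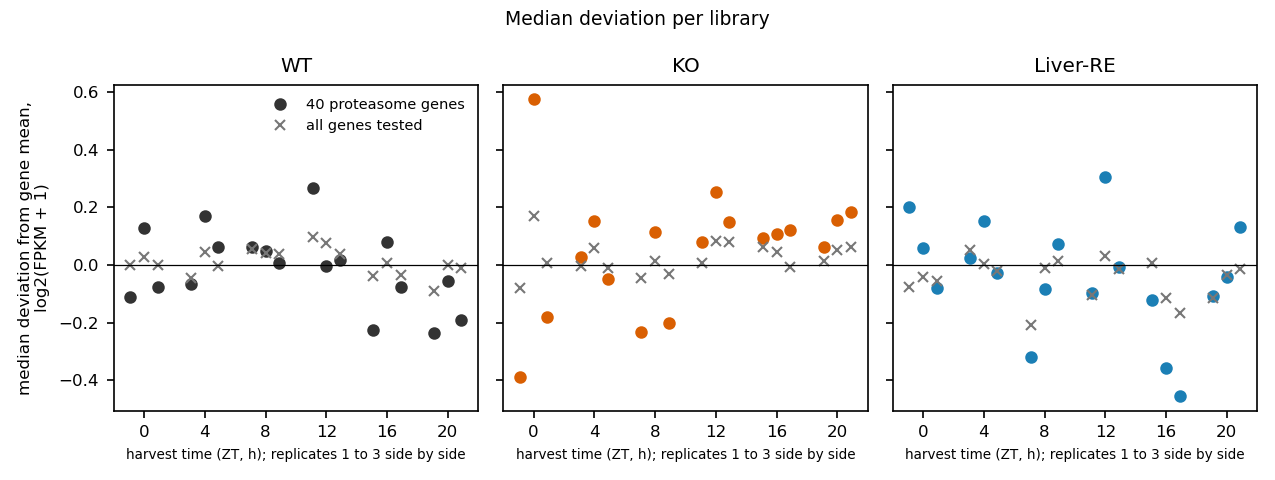
Median deviation from the gene mean in each library, in log2(FPKM + 1), for the 40 proteasome genes (circles) and for all tested genes (crosses), by genotype and harvest time with replicates 1 to 3 side by side. KO ZT0 replicate 2 is the highest circle at 0.58 and Liver-RE ZT16 replicate 3 the lowest at -0.45, and the crosses move less than the circles.

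As a share of all summed values, proteasome genes made up 0.401% ± 0.0250 of WT, 0.447% ± 0.0363 of KO and 0.419% ± 0.0336 of Liver-RE libraries (SD, n = 18). The share differed with time too: it was 0.429% ± 0.0115 at ZT4 and 0.377% ± 0.0319 at ZT20 in WT, 0.479% ± 0.0237 at ZT20 in KO, and 0.459% ± 0.0250 at ZT0 and 0.383% ± 0.0315 at ZT16 in Liver-RE (SD, n = 3). Albumin (Alb), the most abundant plasma protein made by hepatocytes, took 10.2% of the summed values of WT livers, 4.82% of those of KO and 9.57% of those of Liver-RE. Counts from a rescaling that left out the 20 highest genes are therefore given beside the level comparisons.

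Averaged over the day, 3 proteasome genes were higher and 1 was lower in livers without BMAL1 than in WT. The cap subunits Psmd11 and Psmd8 and the beta ring subunit Psmb3 rose, and Psmb10 fell. In limma with Benjamini-Hochberg adjustment over all 11759 genes, 16.5% of genes were higher and 13.5% lower in KO than in WT (30% in either direction), and the 4 members called made 10% of 40. The median member difference was 0.076 (log2) against 0.020 for all genes, with a range from -0.43 to 0.36 and a median standard error of 0.069. A positive difference was found for 31 of 40 members and for 55.5% of all genes. At an unadjusted p under 0.05 there were 8 members (20% of 40, against 40.7% of all genes). The median member difference was 0.036 without KO ZT0 replicate 2, and 0.053 and 0.047 with quantile normalization and with the 20 highest genes left out of the scaling.

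Psmd11 encodes the cap scaffold subunit also called Rpn6, which touches the core. Its lowest, median and highest values over 18 libraries were 20.1, 23.6 and 30.7 FPKM in WT and 25.5, 30.7 and 40.8 FPKM in KO. The median KO liver thus stood at the level of the highest WT liver, although the ranges overlapped. The difference was 0.36 ± 0.053 (log2, SE; limma adjusted p = 2.87e-07), and KO was higher at 6 of 6 harvest times. Psmd8, the lid subunit Rpn12, ranged from 42.0 through a median of 46.2 to 54 FPKM in WT and from 37.0 through 56.6 to 83.4 FPKM in KO. KO was the more variable of the pair, holding both the lowest and the highest liver, and the KO mean was higher at 6 of 6 times (0.22 ± 0.068, SE; limma adjusted p = 0.0115). Psmb3, a beta subunit without an active site, had a WT low, median and high of 27.1, 37.9 and 47.6 FPKM, against 32.6, 42.8 and 81.5 FPKM in KO. It was higher in KO at 5 of 6 times (0.20 ± 0.078, SE; limma adjusted p = 0.0401), and this call was lost when 1 of 13 single libraries was left out (adjusted p from 0.0122 to 0.0823 over the 54 fits). Without WT ZT8 replicate 2 and Liver-RE ZT0 replicate 3 together, its adjusted p was 0.0542.

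Psmb10 moved the other way. It measured 13.2, 25.1 and 36.1 FPKM (lowest, median, highest) in WT and 12.2, 18.4 and 35.7 FPKM in KO. All but 1 of the KO livers were at 21.8 FPKM or less, the exception being KO ZT0 replicate 1 at 35.7 FPKM. KO was lower at 6 of 6 times (-0.43 ± 0.11, SE; limma adjusted p = 0.00123). The constitutive catalytic subunits did not pass the test. Psmb5 (20.8, 25.4 and 30.1 FPKM in WT against 18.9, 28.3 and 46.5 FPKM in KO) had a difference of 0.20 ± 0.079 (SE; limma adjusted p = 0.0515). For Psmb7 (65.3, 77.6 and 107.4 FPKM against 58.8, 94.9 and 140.5 FPKM) it was 0.19 ± 0.080 (adjusted p = 0.0603), and for Psmb6 (59.7, 79.6 and 101.1 FPKM against 54.9, 88.8 and 137.4 FPKM) 0.12 ± 0.081 (adjusted p = 0.278). In each of these the highest KO liver was ZT0 replicate 2.

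By role, none of the 7 alpha ring genes, 6 ATPases, 3 chaperones or 5 activators was called in KO against WT. The median difference was 0.12 for the beta ring, 0.093 for the cap subunits that are not ATPases, 0.061 for the alpha ring, 0.016 for the ATPases and -0.047 for the activators. Counts depended on scaling: with quantile normalization or with the 20 highest genes left out of the scaling, 5 members were higher and 3 lower. All genes were then called higher and lower in 16.9% and 16.9% with quantile normalization, and in 14.1% and 16.8% without the 20 highest genes. Without KO ZT0 replicates 1 and 2, 5 were higher and 2 lower, where 16.7% of all genes were higher and 14% lower. Without KO ZT0 replicate 1 alone 8 were higher, and the share of all genes in that fit is not given.

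**Figure D3:**
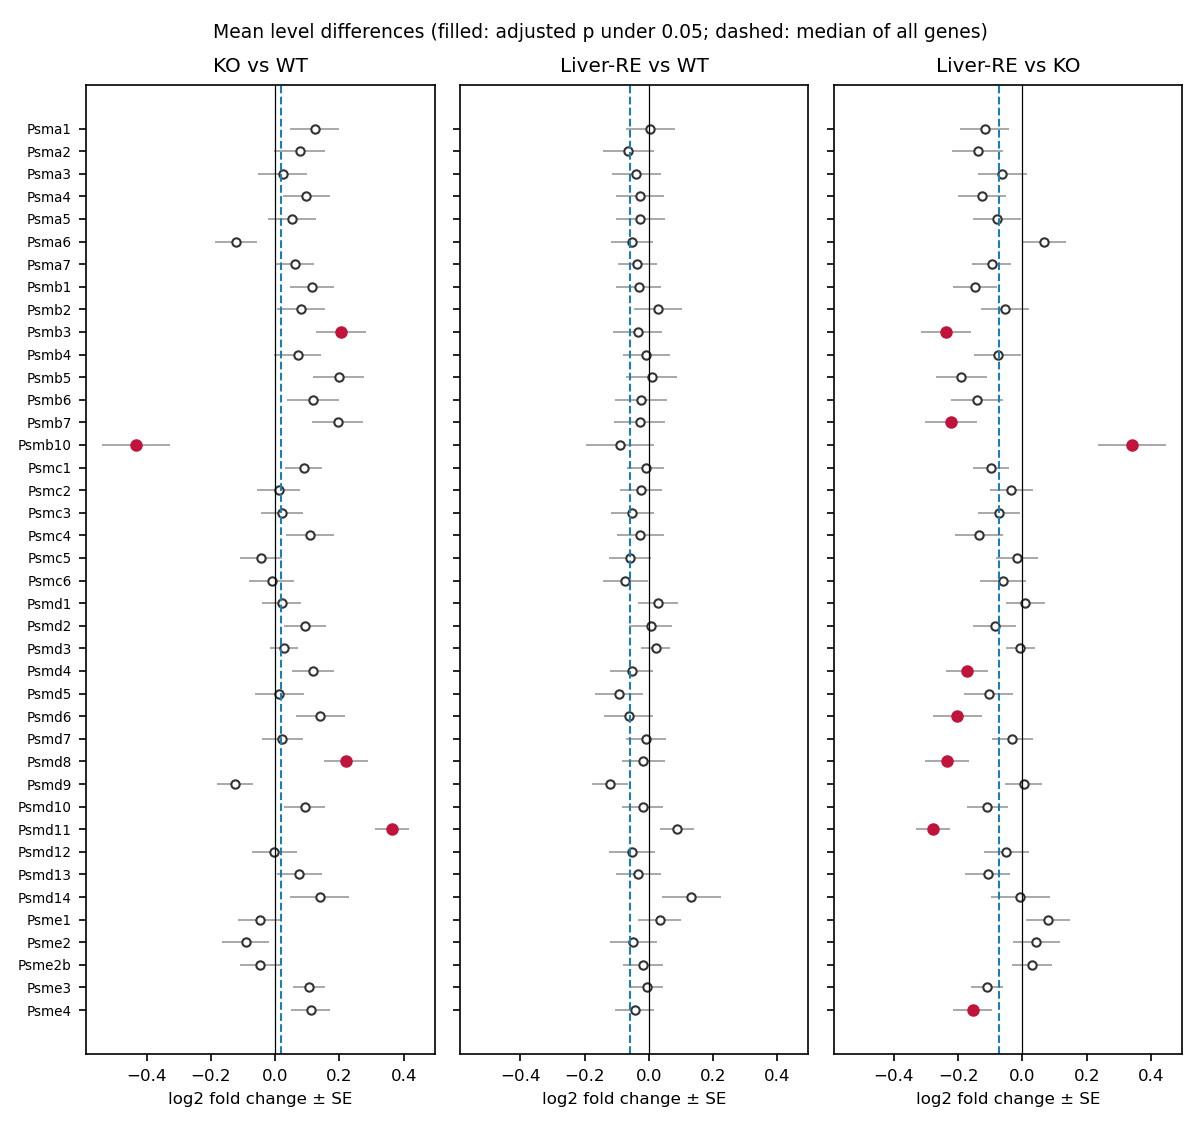
Difference in mean level between genotypes for each proteasome gene, in log2 fold change of FPKM + 1 with its standard error (horizontal bars), for the 3 pairs of genotypes; filled points passed an adjusted p of 0.05 and dashed lines give the median of all genes. Psmd11 at 0.36 and Psmb10 at -0.43 bound the KO vs WT panel, and no point is filled in the Liver-RE vs WT panel.

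Liver-RE livers had no proteasome gene that passed the test against WT. In limma, 1.18% of all genes were higher and 5.88% lower (7.06% in either direction), while 0 of 40 members were called and 1 had an unadjusted p under 0.05 (2.5%, against 25% of all genes). That count stayed at 0 in the 11 other settings and in the 54 fits that left out 1 library. All genes were called higher and lower in 2.1% and 2.26% with quantile normalization, and in 1.59% and 2.48% without the 20 highest genes. The shares were 0.757% and 1.09% with libraries shifted to an equal median member, and 1.3% and 7.23% without KO ZT0 replicates 1 and 2. Shares for the fits without 1 library are not given. The differences ran from -0.12 for Psmd9 to 0.13 for Psmd14, with a median of -0.027 against -0.057 for all genes. Liver-RE was lower than WT for 31 of 40 members and for 73.6% of all genes, a direction that turned with scaling, since the median was 0.018 with quantile normalization and 0.016 with the 20 highest genes left out. Psmd11 measured 15.1, 24.6 and 32.7 FPKM (lowest, median, highest) in Liver-RE, a difference from WT of 0.087 ± 0.053 (SE; limma adjusted p = 0.301). Psmb10 measured 15.3, 22.2 and 43.6 FPKM, a difference from WT of -0.091 ± 0.11 (adjusted p = 0.62). Values that miss the threshold do not show that the genotypes are equal: with a median standard error of 0.069, differences of the size seen for Psmb3 in KO lie near what this test can call.

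Against KO, Liver-RE livers had 1 higher and 7 lower members. This comparison shares the KO libraries with that of KO and WT, so the pair are not independent. In limma 7.42% of all genes rose and 26.7% fell (34.1% in either direction), and 8 members made 20.0% of 40. The median member difference was -0.091 against -0.074 for all genes, and 11 members had an unadjusted p under 0.05 (27.5%, against 44.1% of all genes). The median member difference was -0.054 without KO ZT0 replicate 2, and -0.021 and -0.018 with quantile normalization and without the 20 highest genes in the scaling. Psmb10 was higher in Liver-RE (0.34 ± 0.11, SE; limma adjusted p = 0.0103), at 5 of 6 harvest times. Psmd11 was lower by -0.28 ± 0.053 (SE; adjusted p = 5.19e-05), Psmd8 by -0.24 ± 0.068 (adjusted p = 0.00615; 36, 45.0 and 60.1 FPKM in Liver-RE) and Psmb3 by -0.24 ± 0.078 (adjusted p = 0.0144; 22.6, 37.4 and 50.7 FPKM), each at 6 of 6 times. In all of these the ranges of the livers overlapped.

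The other 4 lower members were nearer the threshold. They were the catalytic Psmb7 (-0.22, adjusted p = 0.0271), the lid subunit Psmd6 (-0.20, adjusted p = 0.0354), the ubiquitin receptor Psmd4 (-0.17, adjusted p = 0.0376) and the nuclear activator Psme4 (-0.15, adjusted p = 0.0444), all from limma. Psmb7 measured 52.9, 83.6 and 99.0 FPKM in Liver-RE. Each of these 4 calls was lost in some fits without 1 library, in 3 of 54 for Psmb7, 8 for Psmd6, 16 for Psmd4 and 18 for Psme4. Psmd4 and Psme4 were also lost with quantile normalization (limma adjusted p = 0.0699 and 0.110). Without the 20 highest genes in the scaling Psmd4 (0.133), Psme4 (0.189) and Psmd6 (0.0817) were lost. In a fit of only these genotypes all 4 were lost (from 0.0561 for Psmb7 to 0.0767 for Psme4). With quantile normalization 2 members were higher and 5 lower, and with the 20 highest genes left out of the scaling 2 were higher and 4 lower. For all genes those settings called 12.4% higher and 14% lower, and 10.6% higher and 13.9% lower.

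Few proteasome genes were called as cycling over the day, though the count in WT ran from 3 to 9 over the 11 other settings. A cosine of 24 h passed the test (limma F test, Benjamini-Hochberg) for 3 of 40 members in WT, or 7.5%, where 23.5% of all genes did. In KO 0 members passed, where 0% of all genes did and the count was 0 in the 11 other settings too. In Liver-RE 1 member passed, or 2.5%, where 3.82% of all genes did. At an unadjusted p under 0.05 there were 9 members in WT (22.5%, against 37.6% of all genes). There were 5 in KO (12.5%, against 9.4%) and 6 in Liver-RE (15%, against 21.1%). The fitted peak-to-trough fold of the median member was 1.21 in WT (all genes 1.2), 1.15 in KO (1.12) and 1.19 in Liver-RE (1.16).

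Psmd11 had the smallest rhythm p in WT. Its 3 livers measured 25.2, 30.7 and 29.2 FPKM at ZT0, 27.5, 26.0 and 28.2 at ZT4 and 23.0, 25.1 and 23.5 at ZT8. At ZT12 they measured 21.8, 20.1 and 20.3 FPKM, at ZT16 22.3, 20.1 and 20.3 and at ZT20 23.8, 24 and 20.4. Each ZT0 and ZT4 liver thus exceeded each liver from ZT12 to ZT20. The fitted fold was 1.38 with a peak at ZT2.21 (adjusted p = 0.00405). In Liver-RE the livers measured 30.2, 31.7 and 32.7 FPKM at ZT0, 15.1, 22.1 and 21.9 at ZT8 and 31.7, 28.0 and 29.8 at ZT20. There the peak was at ZT21.7 with a fold of 1.48 (adjusted p = 0.0025), and the ZT0 and ZT20 livers stood above all those of the other times. In KO, Psmd11 measured 27.2, 40.8 and 31.7 FPKM at ZT0 and 31.0, 34.2 and 37.8 at ZT12, with a fitted fold of 1.05 (adjusted p = 0.948).

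Psmd3, the cap subunit Rpn3, and the chaperone Psmd9 were the other rhythmic members in WT. Psmd3 measured 20.0, 25.3 and 23.8 FPKM at ZT0, 23.8, 24.2 and 23.0 at ZT4, 20.3, 18.4 and 17.3 at ZT12 and 16.2, 22.2 and 17.7 at ZT20. Its fitted fold was 1.30 with a peak at ZT3.97 (limma adjusted p = 0.00578). With libraries shifted to an equal median member, the call was lost (adjusted p = 0.142). Psmd9 ran in the opposite phase: 6.51, 7.90 and 6.17 FPKM at ZT0 against 9.11, 11.1 and 9.55 FPKM at ZT16, with no overlap. Its fold was 1.36 with a peak at ZT14.7 (adjusted p = 0.00983).

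**Figure D4:**
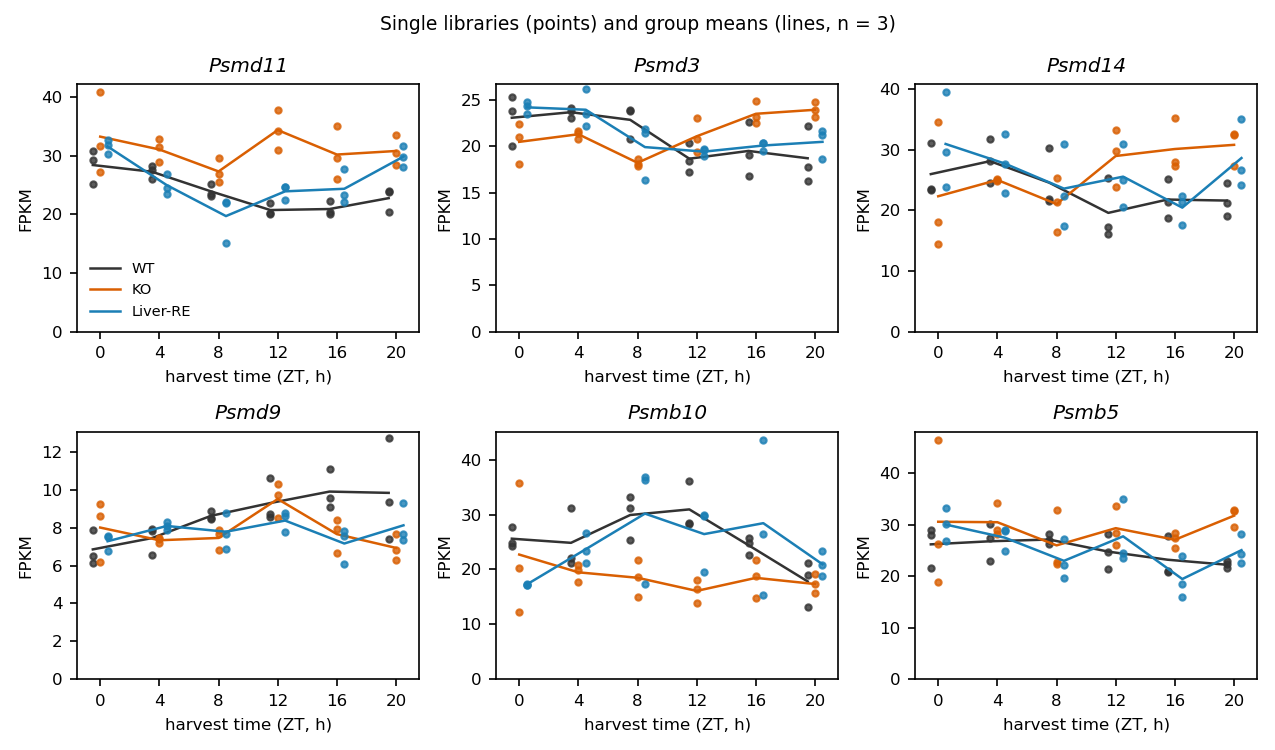
FPKM in every liver (points) and group means (lines, n = 3) by harvest time for 6 proteasome genes in WT, KO and Liver-RE, with each vertical axis starting at 0. Psmd11 falls from ZT0 to ZT12 in WT and is lowest at ZT8 in Liver-RE, Psmd3 is high at ZT4 in WT and at ZT20 in KO, and Psmb10 is lowest in KO at most times.

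The rhythm itself differed between genotypes for 3 members. In KO against WT, 7.78% of all genes had a rhythm difference, and 2 of 40 members did (5%; at an unadjusted p under 0.05, 9 members or 22.5%, against 24.6% of all genes). For Psmd3 the KO livers measured 18.1, 18.7 and 17.9 FPKM at ZT8 and 23.1, 23.9 and 24.8 FPKM at ZT20, with no overlap. In WT they measured 23.9, 23.8 and 20.8 FPKM at ZT8 and 16.2, 22.2 and 17.7 FPKM at ZT20, where the mean was the lower one. The limma adjusted p of the rhythm difference was 0.0032, and the call was lost with libraries shifted to an equal median member (adjusted p = 0.381). The fitted KO peak was at ZT18.7, although the KO rhythm of Psmd3 itself did not pass (adjusted p = 0.354). Psmd14 encodes Rpn11, the enzyme that removes ubiquitin chains at the cap. It measured 25.4, 17.3 and 16.1 FPKM at ZT12 in WT and 29.9, 33.2 and 23.8 FPKM in KO, and 24.5, 31.8 and 28.1 FPKM at ZT4 in WT against 24.9, 25.2 and 24.9 FPKM in KO. The rhythm difference had an adjusted p of 0.048, lost in 34 of 54 fits without 1 library (from 0.0268 to 0.0950). Neither genotype's own rhythm passed for Psmd14 (adjusted p = 0.151 in WT and 0.494 in KO).

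In Liver-RE against WT, 3.51% of all genes had a rhythm difference, and 1 member did, Psmd11 (2.5%; at an unadjusted p under 0.05, 3 members or 7.5%, against 17.8% of all genes). Its adjusted p was 0.0457, lost in 28 of 54 fits without 1 library (from 0.0277 to 0.0983) and at 0.0694 without the 2 libraries whose clock genes were out of phase. In Liver-RE against KO, which shares libraries with both, 0.238% of all genes and 0 members had one in limma, and 10 members had an unadjusted p under 0.05 (25%, against 12.4% of all genes). The count past the adjusted threshold was 0 in the 11 other settings as well.

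Fitted peak times are given as a description, since most single rhythms did not pass the test. The cosine peaked between ZT0 and ZT12 for 36 of 40 members in WT (60.6% of all genes), for 3 in KO (38.7%) and for 38 in Liver-RE (61.1%). The median member peaked at ZT8.17 in WT, at ZT16.9 in KO and at ZT3.39 in Liver-RE. The peak in Liver-RE was earlier than in WT for 37 of 40 members, with a median difference of -4.10 h, against 72.3% of all genes and a median of -2.73 h. The clock genes Arntl (ZT22.8 and ZT18.1), Dbp (ZT10.9 and ZT5.88), Nr1d1 (ZT7.25 and ZT2.18) and Per2 (ZT13.3 and ZT6.63) peaked earlier in Liver-RE as well, each with a called rhythm in both genotypes. Among members only Psmd11 had a called rhythm in WT and in Liver-RE. A link between the peak times of members and of clock genes was not tested. Members share libraries, and the livers that stood apart (KO ZT0, Liver-RE ZT16) enter every member's fit, so these are not 40 separate observations. Alpha ring genes peaked in WT from ZT5.52 (Psma1) to ZT9.64 (Psma4), and in Liver-RE from ZT2.59 (Psma1) to ZT7.11 (Psma4). In WT several other members stood outside the alpha ring's window, among them Psmd11 (ZT2.21) and Psmd14 (ZT2.82) before it and Psmd9 (ZT14.7) and Psmc5 (ZT16.1) after it.

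**Figure D5:**
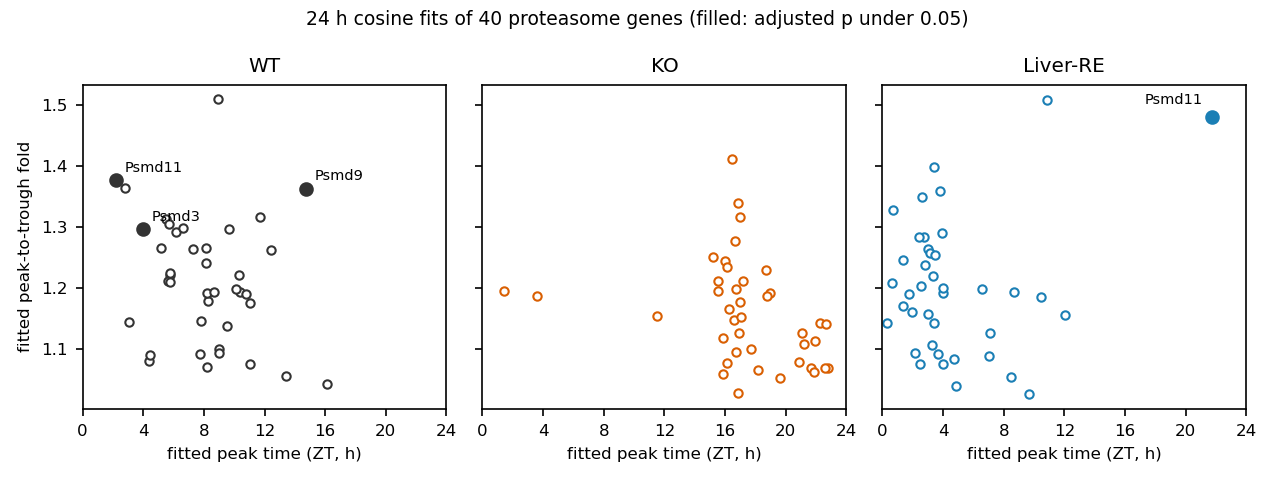
Fitted peak time (ZT, h) and peak-to-trough fold of the 24 h cosine for the 40 proteasome genes in WT, KO and Liver-RE; filled points passed an adjusted p of 0.05. Most points lie between ZT2 and ZT14 in WT, after ZT15 in KO and between ZT0 and ZT5 in Liver-RE, and the filled points number 3 for WT, 0 for KO and 1 for Liver-RE.

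Other genes of the pathway were counted from lists. For comparison, 16.5% of all genes rose and 13.5% fell in KO against WT, and 7.42% rose and 26.7% fell in Liver-RE against KO. Rhythms were called for 23.5% of all genes in WT and for 3.82% in Liver-RE. Of 9 measured assembly chaperones and small cap subunits, 2 rose in KO against WT, the core assembly factors Psmg2 (0.28 ± 0.069, SE; adjusted p = 0.00123) and Psmg1 (0.18 ± 0.055; adjusted p = 0.00978), and 0 fell. In Liver-RE against KO 6 of the 9 fell and 0 rose, led by Psmg1 (-0.25), Psmg2 (-0.29) and Psmg3 (-0.23). Psmg2 cycled in WT with a fold of 1.58 and a peak at ZT5.12 (adjusted p = 0.0016), and in Liver-RE with 1.48 and ZT2.64 (adjusted p = 0.0303). All adjusted p-values of the lists are from the same limma fit.

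Of 15 measured genes for ubiquitin and its delivery to the proteasome, 4 rose and 0 fell in KO against WT (16.5% and 13.5% of all genes). They were led by Ubqln1, a shuttle protein (0.31 ± 0.051, SE; adjusted p = 3.53e-06), the ubiquitin-activating enzyme Uba1 (0.14 ± 0.047; adjusted p = 0.0223) and the unfolding ATPase Vcp (0.13 ± 0.052; adjusted p = 0.0455). In Liver-RE against KO 4 fell and 0 rose (26.7% and 7.42% of all genes). Of 9 genes around NFE2L1, 3 fell and 0 rose in KO against WT: the repressor Bach1 (-0.56 ± 0.055, SE; adjusted p = 1.61e-11), the small partner Maff (-0.58 ± 0.095; adjusted p = 3.46e-06) and Keap1, which holds back NFE2L2 (-0.18 ± 0.044; adjusted p = 0.000923). Maff was near the filter with a mean of 0.765 FPKM, against 6.53 FPKM for Bach1 and 8.70 FPKM for Keap1. Nfe2l1 itself differed by -0.0071 ± 0.052 (SE; adjusted p = 0.936). In Liver-RE against KO, Bach1 (0.55) and Maff (0.76) rose and Ddi2, the protease that activates NFE2L1, fell (-0.22; adjusted p = 0.0146). Of 12 cytosolic chaperones 0 were called in KO against WT in limma. In WT 4 of the 12 cycled, where 23.5% of all genes did, among them Hspa8 (fold 2.09, peak ZT12.9) and Dnaja1 (1.87, ZT12.9).

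Genes of the immunoproteasome and of class I antigen loading are the setting of Psmb10. Of 12 measured, 5 fell and 0 rose in KO against WT, led by the class I genes H2-K1 (-0.56 ± 0.079, SE; adjusted p = 1.28e-07) and H2-D1 (-0.38 ± 0.071; adjusted p = 3.35e-05) and the inducible catalytic subunit Psmb8 (-0.54 ± 0.11; adjusted p = 0.000125). Psmb9, the third inducible subunit, differed by -0.13 ± 0.16 (SE; adjusted p = 0.591). In Liver-RE against KO 4 rose and 0 fell, led by H2-K1 (0.43), the class I activator Nlrc5 (0.36) and Psmb8 (0.40). Pathway and marker lists were tested at the deposited scaling only, where 13.5% of all genes fell in KO against WT and 7.42% rose in Liver-RE against KO. None of the 5 pathway lists had a member called in the mean level of Liver-RE against WT.

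Some markers of other liver cells differed with genotype as well, mainly those of macrophages and cholangiocytes. Among all genes, 16.5% rose and 13.5% fell in KO against WT, and 1.18% rose and 5.88% fell in Liver-RE against WT. Of 12 Kupffer cell and macrophage markers, 11 fell and 0 rose in KO against WT, where Psmb10 and the class I genes fell, and their summed level ran from 312.6 to 443.7 FPKM in WT, from 187.4 to 411.8 FPKM in KO and from 186.7 to 457.5 FPKM in Liver-RE. In Liver-RE against WT 5 of the 12 fell, while Psmb10 was not called there. In Liver-RE against KO, where Psmb10 rose, 0 of the 12 were called. The markers Clec4f and C1qa, among those with the smallest p, fell in KO by 0.40 and 0.48 on the log2 scale. Of 3 measured lymphocyte markers 1 fell in KO, Ptprc (-0.28), and the summed level of all 6 listed was 5.14 to 10.1 FPKM in WT and 3.69 to 8.73 FPKM in KO. Of 5 listed cholangiocyte markers 2 were above the filter, Sox9 and Spp1, and these rose in KO (0.71 and 1.00). In KO against WT 1 of 8 endothelial markers rose and 1 fell, and of 8 stellate cell markers 0 rose and 1 fell. Of 10 hepatocyte markers 3 fell and 0 rose in KO against WT, namely Alb (-1.17), Tat (-0.67) and Hnf4a (-0.27). The part of these cells in the proteasome differences was not tested.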

How the data were processed

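The authors' deposited table gives no unit for its values. They were read as FPKM computed by the authors, because values multiplied by transcript length shared a smallest step more often (6.30% of low values) than values alone (1.31%). TPM with some genes removed cannot be told apart from FPKM here. Libraries were stranded, from total RNA without ribosomal RNA, per the labels' protocols. CASAVA 1.8.2 and mm10 are listed in the submitters' processing notes; the sources used here do not give the aligner, annotation or strand setting.

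Values were analysed as log2(FPKM + 1), which understates changes of low genes, for 11759 genes with a mean of at least 0.5. All 54 libraries entered one linear model (limma 3.58.1 under R 4.3.3; trended empirical Bayes) with, for each genotype, an average and the 2 terms of a 24 h cosine wave. Level contrasts, rhythm F tests and rhythm difference F tests were adjusted by Benjamini-Hochberg over all genes, threshold 0.05. The functions were tested on simulated data. No label pairs the replicate numbers or says how the mice were bred, so p-values measure the spread between these livers.

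The members, the lists and the tests were chosen with earlier results of these data known. Values by library are given for up to 3 members per direction or test with the smallest p past the threshold and for Psmb5, Psmb6, Psmb7 and Psmb10; at most 3 genes per list are named, with exceptions (Psmb9, Nfe2l1) chosen after their values were seen. Alternatives were 8 other settings, each library left out in turn, and 3 settings added after the data were seen. Promoters and coordinates are RefSeq on GRCm38.p6, the assembly mm10 names, matched by symbol. Summaries used pandas 2.3.3 and numpy 2.4.6 in Python 3.11.15, and figures matplotlib 3.10.9.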

Additional observations from a re-analysis of the deposited data

Results flagged for a closer look

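The rhythm of 3 proteasome genes differed between genotypes by a test of the difference itself (limma F test on cosine and sine, Benjamini-Hochberg over all genes). All genes had such a difference in 7.78% for KO vs WT and in 3.51% for Liver-RE vs WT, above the members' shares of 5% and 2.5%. For Psmd3, with fitted peaks at ZT3.97 in WT and ZT18.7 in KO, where its rhythm was not called, the adjusted p was 0.003204 and stayed past the threshold without each of the 54 libraries (0.000722 to 0.00791), but was 0.381 with libraries shifted to an equal median member. For Psmd14, with fitted peaks at ZT2.82 in WT and ZT16.5 in KO, neither rhythm called, it was 0.04798. For Psmd11, with peaks at ZT2.21 in WT and ZT21.7 in Liver-RE, it was 0.04568.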

How the results depend on the processing

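Counts of called members moved with scaling. In place of the 3 members higher in KO than in WT, 5 were found with the replicate block, quantile normalization, scaling without the 20 highest genes, a mean per group, without both KO ZT0 libraries that stood apart, and with libraries shifted to an equal median member. The 1 lower became 3 with quantile normalization and scaling without the 20 highest genes, 2 without both KO ZT0 libraries and 4 with an equal median member. For Liver-RE vs KO the 1 higher became 2, 2 and 3 with quantile normalization, scaling without the 20 highest genes and an equal median member, and the 7 lower became 4 with scaling without the 20 highest genes, 3 in a fit of only these genotypes and 4 with an equal median member. Rhythmic members in WT numbered 7, 6, 9 and 7 with quantile normalization, scaling without the 20 highest genes, a fit of WT alone and an equal median member, against 3, and in Liver-RE 3, 3, 2 and 2 with quantile normalization, scaling without the 20 highest genes, without both KO ZT0 libraries and with an equal median member, against 1. The 2 rhythm differences of KO vs WT became 1 with no filter and with a mean per group, and the 1 of Liver-RE vs WT became 0 with no filter, a mean per group, without the libraries with clock genes out of phase and with an equal median member. For KO vs WT, 17.2% of all genes were higher and 13.8% lower with the replicate block, and 17.5% and 14.1% with a mean per group. The shares were 16.7% and 14% without both KO ZT0 libraries, and 7.8% and 17.2% with an equal median member. For Liver-RE vs KO they were 6.88% and 24.2% in a fit of only these genotypes, and 9.92% and 7.35% with an equal median member. All-gene shares of rhythm calls in these settings, and of calls with 1 library left out, are not given here. The causes were not tested.

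Leaving out each library in turn gave 2 to 8 higher and 1 to 3 lower members for KO vs WT. For Liver-RE vs KO it gave 1 higher and 3 to 10 lower. Rhythmic members numbered 3 to 4 in WT and 1 to 3 in Liver-RE. Rhythm differences numbered 1 to 3 for KO vs WT and 0 to 1 for Liver-RE vs WT. With all libraries 16.5% of all genes were higher and 13.5% lower for KO vs WT, and 7.42% and 26.7% for Liver-RE vs KO. Shares with 1 library left out are not given, so these counts cannot be set against all genes. KO vs WT gave 8 higher members without KO ZT0 replicate 1 and 5 without WT ZT0 replicate 2, WT ZT12 replicate 1, KO ZT0 replicate 3, KO ZT8 replicate 1 or 3 or Liver-RE ZT16 replicate 3, and 3 lower without KO ZT0 replicate 2. Liver-RE vs KO gave 3 lower members without KO ZT0 replicate 2, Liver-RE ZT8 replicate 1 or Liver-RE ZT16 replicate 3, and 4 without KO ZT4 replicate 2, KO ZT12 replicate 2, Liver-RE ZT4 replicate 1 or 3 or Liver-RE ZT16 replicate 2. Rhythms in Liver-RE numbered 3 when ZT8 replicate 1 of that genotype was left out and 2 when its ZT12 replicate 2 was. The counts of rhythm differences moved by over 1.5 times without 33 (KO vs WT) and 28 (Liver-RE vs WT) of the 54 libraries. The calls of Psmd11, Psmd8 and Psmb10 in both level contrasts with KO, of Psmb3 in Liver-RE vs KO, and the rhythms of Psmd11, Psmd3 and Psmd9 in WT and of Psmd11 in Liver-RE held without each of the 54 libraries.

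The replicate numbers were not taken as pairs: deviations correlated at a mean of 0.040 between libraries of the same number and -0.020 between others, and 29 of 54 libraries correlated best with their own number, where 1 in 3 would be 18, a hint from the data and not from the design. The replicate block moved no other count by over 1.5 times. The median member difference ran from 0.036 to 0.104 for KO vs WT, from -0.057 to -0.0034 for Liver-RE vs WT and from -0.117 to -0.054 for Liver-RE vs KO when 1 library was left out. Shifting libraries to an equal median member sets it near 0 by construction, at 0.0077, 0.0031 and 0.0070. Depth is an estimate and no counting error is given.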
